A study of Danio rerio with 6 samples.

Results

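Collagen genes were examined in sorted cardiomyocytes from the atrioventricular canal of adult zebrafish. Members were the rows of the deposited count tables whose gene name begins with col, a type number, the letter a and a chain number. Of 25281 genes, 54 had such a name, and none of them was a collagen-binding protein. This canal joins the atrium to the ventricle and holds the valves between them. The data are 6 RNA-seq libraries of sorted cells, 3 named GFP-positive (β-catenin ON) and 3 named GFP-negative (β-catenin OFF).

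All 6 libraries came from fish of 4 to 8 months with the same transgenes. Tg(myl7:GAL4db-TCFΔC-2A-mCherry) uses the cardiomyocyte promoter of myl7 to make mCherry and a shortened TCF fused to the DNA-binding part of GAL4. Tg(UAS:EGFP) then gives EGFP where β-catenin activates transcription through that fusion, and Tg(myl7:NLS-mCherry) marks cardiomyocyte nuclei. For the GFP-negative group, both the sort label and the protocol name mCherry-negative EGFP-positive cells, against the sample titles, so that gate is not settled. Nothing in the labels ties a replicate to its own fish or sort, so the p-values reflect only the spread among these samples, which may be technical.

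Collagens are secreted matrix proteins whose chains wind into a triple helix. Fibrillar types such as I and V form the tensile fibres of tissue, type IV forms the sheet of basement membranes, type VI forms beaded microfibrils, types VIII and X form short-chain networks, and FACIT collagens sit on the surface of fibrils. Heart fibroblasts, epicardial cells and valve interstitial cells are the best known sources of type I collagen in the heart, while cardiomyocytes and endothelial cells are wrapped in type IV basement membrane. Type X is best known from the hypertrophic cartilage of mammals, and the zebrafish copy col10a1a from bone-forming cells.

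Library totals ran from 14783352 to 19750914 counts. Levels are given as CPM, counts per 1000000 counts of a library after TMM scaling, and are not divided by gene length, so they are compared between libraries and not between genes. Mitochondrially encoded genes had 11.9% to 15.7% of the counts in GFP-negative and 35.6% to 44.9% in GFP-positive libraries. The summed level of 19 cardiomyocyte markers, led by myl7, was 97590 to 121431 CPM in GFP-negative and 49138 to 62754 CPM in GFP-positive libraries. These genes were thus abundant in every library. At an edgeR adjusted p under 0.05, 9 of the 19 fell, among them myl7, and 2 rose, beside 2.13% and 2.08% of all tested genes. GFP-positive replicates resembled each other less (Pearson r over log2 CPM of genes, which are no independent replicates, 0.706 to 0.761) than GFP-negative ones did (0.956 to 0.973). With 10093 genes at 10 counts or more, GFP-positive replicate 3 was the lowest library.

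Of the collagen genes, col10a1b and col1a1b passed the test in the comparison that asks how canal cardiomyocytes with active β-catenin differ from the others. Of the 54 members, 24 passed the expression filter and 30 did not. Among the 24, 2 rose, 0 fell and 22 did not pass at an edgeR adjusted p under 0.05; over all 13490 tested genes, 2.08% rose and 2.13% fell. The median log2 fold change of the 24, GFP-positive over GFP-negative, was 1.34, beside 0.01 for all tested genes, and 19 of the 24 had a positive and 5 a negative value. In 9 of the 24 every GFP-positive library lay above every GFP-negative one, which 12.1% of tested genes did, and in 1 the order was reversed, as in 17.6% of tested genes. The filter keeps genes by their counts in a group, so these counts and medians describe the 24 alone and support no statement about all 54. Without a filter on expression, 50 members had a count and 3 rose, col1a2 being the additional one (1.21% of all genes rose in that fit).

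How many collagens were called depended on the fit, as did the share of all genes called. With DESeq2 5 of the 24 rose and 0 fell, where 7.09% of all genes rose and 5.51% fell. With the replicate number as a block 4 rose, where 2.09% of all genes did. With limma-voom 2 rose and 0 fell, where 2.63% and 1.81% of all genes did. Without a composition factor 2 collagens rose, where 1.45% of all genes did. Leaving out GFP-negative replicate 1, 2 or 3 left 0, 1 (col1a1b) and 1 (col10a1b) collagens that rose, where 0.259%, 0.538% and 0.212% of all genes did. Leaving out GFP-positive replicate 1, 2 or 3 left 1 (col10a1b), 0 and 2, where 1.1%, 0.645% and 3.09% of all genes did; in the last of these fits 4.01% of all genes and 0 collagens fell. The balance of all calls, 280 higher and 288 lower, was 258 and 450 with upper-quartile factors and 196 and 507 with none, with the same count of 2 collagens higher in each.

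**Figure D1:**
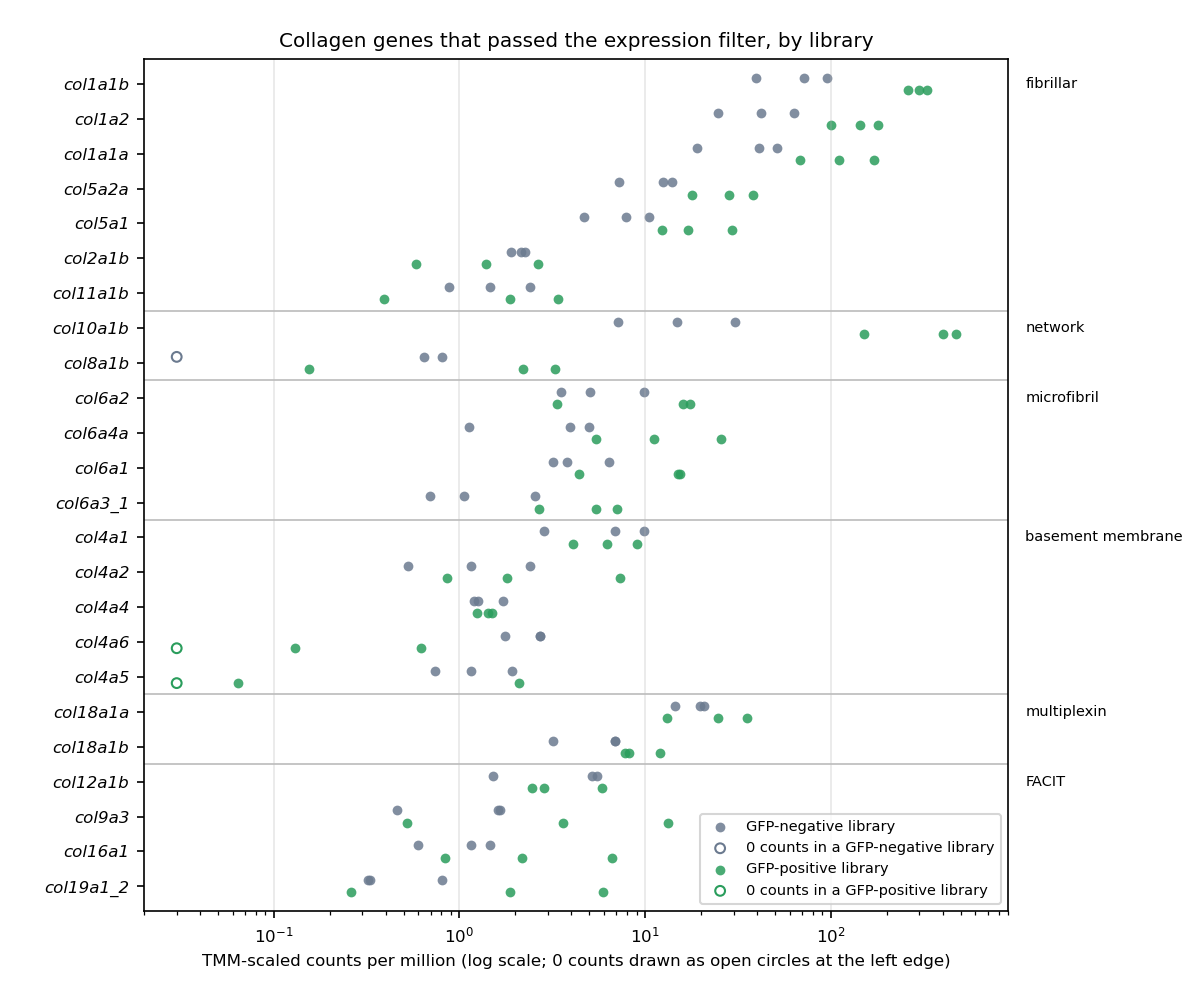
TMM-scaled CPM (log axis) of the 24 tested collagen genes, 1 row per gene grouped by class and 1 point per library, with 0 counts drawn as open circles at the left edge. The 3 GFP-positive points of col1a1b, col1a2, col1a1a, col5a2a, col5a1 and col10a1b lie to the right of the GFP-negative points, while those of col4a1, col4a4 and col18a1a overlap them and those of col4a6 lie to the left.

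Collagen transcripts were a small part of every library. All 54 genes together took 0.0142%, 0.0381% and 0.0299% of counts in GFP-negative replicates 1, 2 and 3 (95% Wilson intervals 0.0136% to 0.0148%, 0.0372% to 0.0390% and 0.0292% to 0.0307%). In GFP-positive replicates 1, 2 and 3 they took 0.0628%, 0.120% and 0.121% (0.0616% to 0.0641%, 0.118% to 0.122% and 0.119% to 0.123%). The GFP-positive libraries were thus all above the GFP-negative ones, with means of 0.101 ± 0.0333% and 0.0274 ± 0.0121% (SD, n = 3 each); no test is given for this sum over chosen members. With mitochondrially encoded counts left out of the totals, the means were 0.168% and 0.0319%. Intervals cover counting error only, and they may be too narrow even for that, since amplification copies are counted too. GFP-negative replicate 1, the lowest library, held 2311 collagen counts against 6556 and 5910 in the other two of its group. It was also the lowest of its group in 16 of the 24 tested members, and in 41.2% of all tested genes.

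A few genes made up most of these counts. The type I genes col1a1a, col1a1b and col1a2 together with col10a1b held 59.0%, 68.5% and 67.9% of collagen counts in GFP-negative and 80.6%, 86.0% and 85.5% in GFP-positive libraries. The part of col10a1b alone was 4.67%, 4.53% and 11.2% in GFP-negative and 21.0%, 38.2% and 32.8% in GFP-positive libraries. The type I part, 54.3% to 63.9% and 47.8% to 59.6%, overlapped between the groups. By class, fibrillar, network and FACIT collagens had non-overlapping shares of library counts with GFP-positive higher, and those of microfibril, basement membrane and multiplexin collagens overlapped.

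**Figure D2:**
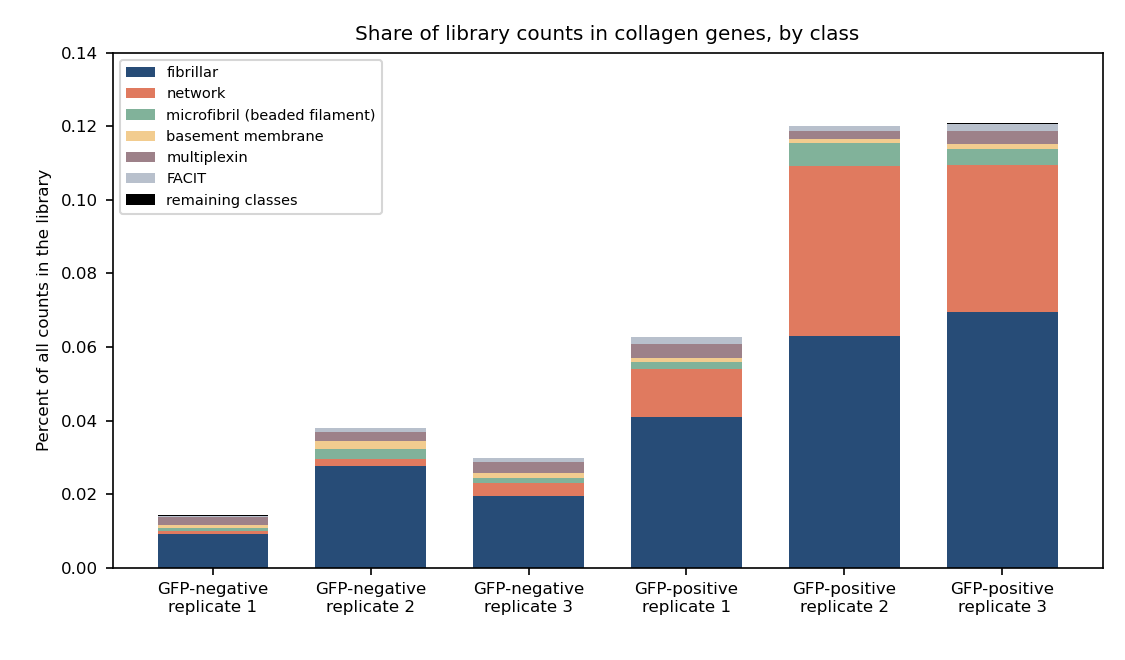
Percent of all counts in a library that fell in collagen genes, stacked by class, with 1 bar per library. The 3 GFP-negative bars reach 0.0142% to 0.0381% and the 3 GFP-positive bars 0.0628% to 0.121%, and the network class, almost all of it col10a1b, is the part that differs most in its share of the bar.

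The number of collagen genes expressed did not separate the groups. With at least 10 counts as the limit, 20, 25 and 24 of the 54 were expressed in GFP-negative and 23, 24 and 20 in GFP-positive replicates 1, 2 and 3. Fibrillar members numbered 7 in every library except GFP-positive replicate 3, which had 5 of 15. Basement membrane members numbered 4, 5 and 5 of 6 in GFP-negative and 4, 3 and 3 in GFP-positive libraries. FACIT members numbered 4 or 5 of 12, except for 1 in GFP-negative replicate 1. All 6 libraries had at least 10 counts of 15 genes, and 24 genes reached that limit in no library. col5a3b, col28a2b, col21a1 and the row col19a1_1 had no count at all, and no gene of the transmembrane class (col17a1a and col17a1b) or of type XXVIII reached 10 counts in a library.

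Type I collagen carried the fibrillar class. col1a1b (ENSDARG00000035809), one of the a and b copies of the gene for the collagen I alpha 1 chain, stood at 39.3, 95.4 and 71.4 CPM in GFP-negative and 261, 300 and 331 CPM in GFP-positive replicates 1, 2 and 3. Each GFP-positive library exceeded each GFP-negative one, and the GFP-positive values varied little. col1a1b rose from a mean of 68.7 ± 28.1 to one of 297 ± 35.1 CPM (± SD, n = 3), a log2 fold change of 2.11 ± 0.32 SE (adjusted p = 0.0195, edgeR). That call rested on several libraries: in edgeR fits that left out 1 library, the adjusted p was 0.0514 (GFP-negative replicate 1), 0.105 (GFP-negative replicate 3), 0.0539 (GFP-positive replicate 1) and 0.0688 (GFP-positive replicate 2), with log2 fold changes of 1.87 to 2.41 over all 6 such fits.

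The other type I genes lay in the same order without passing the threshold. col1a2 (ENSDARG00000020007), which encodes the partner alpha 2 chain, stood at 24.7, 63.7 and 42.2 CPM in GFP-negative and 101, 179 and 143 CPM in GFP-positive libraries. Its groups did not overlap and its log2 fold change was 1.69 ± 0.38 (adjusted p = 0.0515, edgeR, and 1.53e-04 to 0.215 over the alternatives). col1a1a (ENSDARG00000012405), the other alpha 1 copy, stood at 19.1, 51.0 and 40.9 CPM in GFP-negative and 68.0, 111 and 171 CPM in GFP-positive libraries, also without overlap (1.66 ± 0.45, adjusted p = 0.0870, edgeR). In every library of both groups col1a1b had more counts than col1a1a. Its part of their joint counts was 67.3%, 65.1% and 63.6% in GFP-negative libraries (95% Wilson intervals within 61.6% to 70.4%). In GFP-positive libraries it was 79.3%, 73.0% and 65.9% (64.8% to 80.5%). The lowest GFP-positive value fell inside the GFP-negative range, so the balance of the copies did not separate the groups. The split of reads between such close copies is uncertain, since how they were assigned is not known. col1a2 counts per count of both alpha 1 copies were 0.423, 0.435 and 0.375 in GFP-negative and 0.307, 0.436 and 0.285 in GFP-positive libraries, overlapping as well.

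Type V collagen, which is built into type I fibrils and sets their width, was measured through col5a1 and col5a2a. col5a2a stood at 7.22, 13.9 and 12.5 CPM in GFP-negative and 17.9, 38.1 and 28.2 CPM in GFP-positive libraries. col5a1 stood at 4.70, 10.4 and 7.89 CPM and at 17.1, 12.4 and 29.3 CPM. Neither gene overlapped between groups, and neither passed the test (log2 fold changes 1.32 ± 0.41 and 1.35 ± 0.49, edgeR adjusted p = 0.127 and 0.185). Within a library, type V counts per type I count were 0.143, 0.116 and 0.132 in GFP-negative and 0.0814, 0.0857 and 0.0891 in GFP-positive libraries. All GFP-positive ratios were thus below the GFP-negative ones. The cartilage fibril genes col2a1b and col11a1b stood at 0.390 to 3.41 CPM over all libraries, with overlapping groups and log2 fold changes of -0.44 ± 0.95 and 0.26 ± 1.08 (edgeR adjusted p = 0.906 and 0.958). The remaining 8 fibrillar genes, col2a1a, col5a2b, col5a3a, col5a3b, col11a1a, col11a2, col24a1 and col27a1b, did not pass the filter, and none of them reached 10 counts in a library.

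col10a1b had the largest fold change of the 24 tested collagens. It encodes a chain of type X collagen. col10a1b (ENSDARG00000101535) stood at 7.15, 14.9 and 30.6 CPM in GFP-negative and 151, 471 and 402 CPM in GFP-positive replicates 1, 2 and 3. The lowest GFP-positive library, replicate 1, was still above the highest GFP-negative one, replicate 3. The mean rose from 17.5 ± 11.9 to 341 ± 168 CPM, a fitted 19.4-fold change (± SD, n = 3), or 4.28 ± 0.65 SE on the log2 scale (adjusted p = 0.0195, edgeR). Its edgeR adjusted p was 0.0813 (GFP-negative replicate 1 left out), 0.0710 (GFP-negative replicate 2) and 0.0688 (GFP-positive replicate 2), and it passed without each of the other 3 libraries; the log2 fold change of these 6 fits lay between 3.95 and 4.93.

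Set beside col1a1b, col10a1b changed its place within the library. There were 0.182, 0.156 and 0.428 counts of col10a1b per count of col1a1b in GFP-negative and 0.580, 1.57 and 1.22 in GFP-positive libraries. The groups did not overlap in this ratio (means 0.255 ± 0.150 and 1.12 ± 0.502, SD, n = 3). The ratio is a description of chosen genes and carries no test; its size within a library depends on gene length, but its change between libraries does not. The gene nt5dc1 overlaps col10a1b in the RefSeq annotation of zebrafish assembly GRCz12tu. Reads could be shared between the genes, since the counting rules are not known. nt5dc1 had 6, 20 and 24 counts in GFP-negative and 29, 3 and 128 in GFP-positive libraries, far below the 108, 297 and 663 and the 1949, 7306 and 6181 counts of col10a1b. GFP-positive replicate 2, the highest in col10a1b, was thus the lowest of its group in nt5dc1.

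The other network collagens were rare. col10a1a, the other type X copy, had a sum of 1 count in GFP-negative and 7 in GFP-positive libraries. col8a1b, a type VIII chain known from vessels and the cornea of mammals, stood at 0, 0.802 and 0.646 CPM in GFP-negative and 0.155, 3.29 and 2.21 CPM in GFP-positive libraries. Its groups overlapped and it did not pass (1.94 ± 1.54, edgeR adjusted p = 0.634). col8a1a and col8a2 had at most 3 counts in a library.

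**Figure D3:**
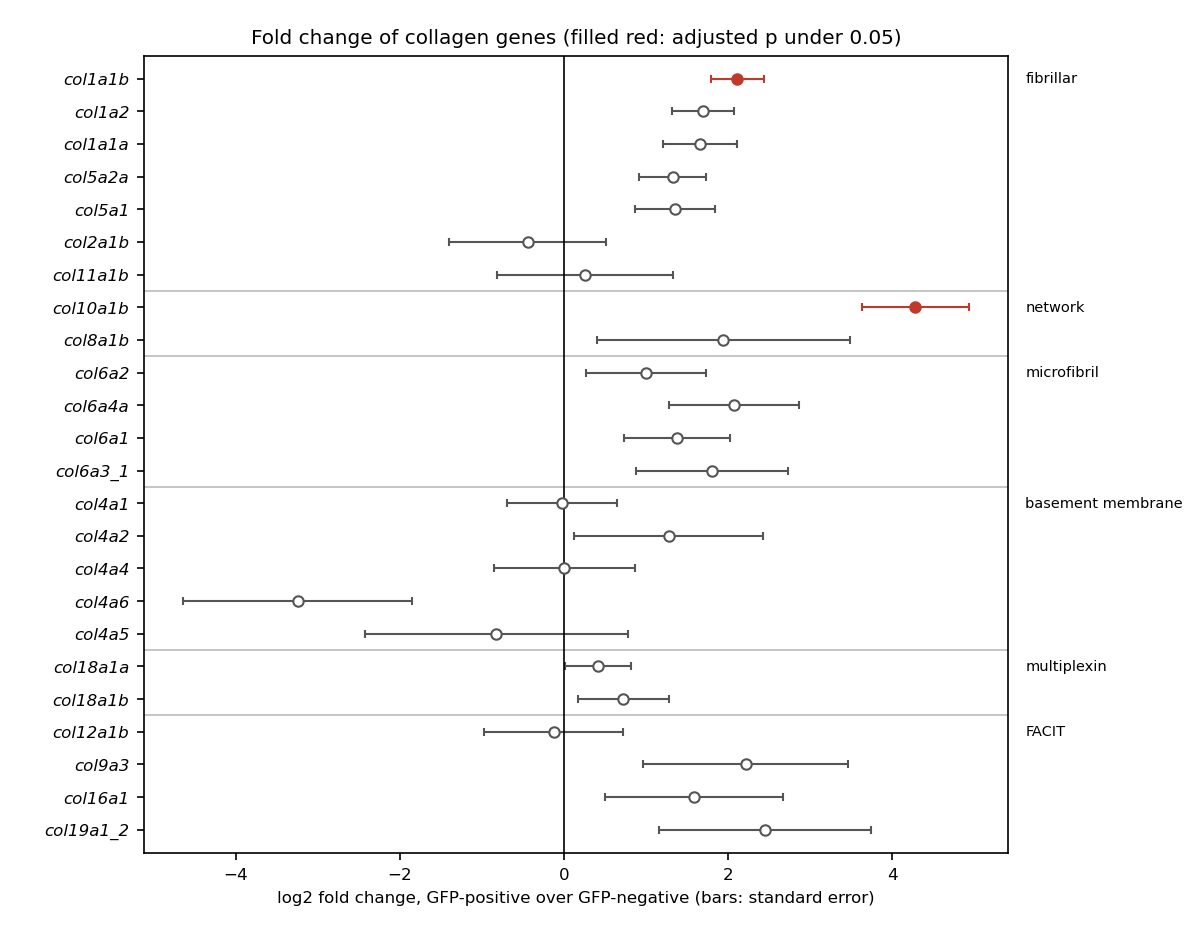
Log2 fold change of the 24 tested collagen genes, GFP-positive over GFP-negative, with standard errors from the edgeR fit; filled red points passed an adjusted p of 0.05. Only col10a1b (4.28 ± 0.65) and col1a1b (2.11 ± 0.32) are filled, and the type IV genes col4a1 and col4a4 sit at 0.

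All 4 tested type VI genes had positive log2 fold changes, and none passed. Type VI collagen links cells to the surrounding matrix and is built from 3 different chains. col6a4a stood at 1.13, 4.96 and 3.92 CPM in GFP-negative and 5.43, 25.6 and 11.2 CPM in GFP-positive libraries, without overlap (2.07 ± 0.79, edgeR adjusted p = 0.210). col6a1 stood at 3.78, 6.42 and 3.18 CPM and at 4.42, 15.3 and 15.0 CPM, and col6a2 at 3.51, 9.83 and 5.07 CPM and at 3.33, 17.5 and 16.0 CPM. GFP-positive replicate 1 lay within the GFP-negative range of col6a1 and just below that of col6a2, and the other GFP-positive libraries lay above both ranges (1.38 ± 0.65 and 1.00 ± 0.73, edgeR adjusted p = 0.319 and 0.592). The alpha 3 chain gene had 2 rows: col6a3_1 did not overlap between groups (1.81 ± 0.93, adjusted p = 0.371, edgeR), and col6a3_2 had 0 counts in every GFP-negative library and 15, 14 and 0 in the GFP-positive ones. Summed over the groups, col6a3_2 was at least 12.5-fold higher against a floor of 3 counts for the whole GFP-negative group, and it was not tested. With 0 counts in GFP-positive replicate 3 its groups overlapped, so this bound on sums does not show a group difference. How reads were shared between these rows is not known.

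Type IV collagen, the sheet of the basement membrane, showed no common direction. The standard chains col4a1 and col4a2 form 1 trimer. col4a1 (ENSDARG00000055009) stood at 2.85, 9.88 and 6.92 CPM in GFP-negative and 6.20, 9.02 and 4.1 CPM in GFP-positive libraries, almost the same range. Its log2 fold change was -0.02 ± 0.67 (adjusted p = 0.994, edgeR), with a sign that varied with the scaling and with the libraries used. col4a2 stood at 0.530, 2.41 and 1.15 CPM in GFP-negative and 0.853, 1.80 and 7.29 CPM in GFP-positive libraries. Only GFP-positive replicate 3 was outside the GFP-negative range, and the log2 fold change of 1.28 ± 1.15 (edgeR adjusted p = 0.696) became -0.05 without it. In that library col4a1 had 0.562 counts per count of col4a2, while the other 5 libraries had 4.1 to 7.27.

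The remaining type IV chains were low. col4a4 stood between 1.19 and 1.71 CPM in all 6 libraries (0.00 ± 0.86, edgeR adjusted p above 0.999). col4a6 stood at 2.72, 2.71 and 1.75 CPM in GFP-negative and 0.620, 0 and 0.130 CPM in GFP-positive libraries. It was the 1 tested collagen with every GFP-positive library below every GFP-negative one, and it did not pass (-3.24 ± 1.40, edgeR adjusted p = 0.268). col4a5, which makes a trimer with the alpha 6 chain in mammals, had 29, 23 and 16 counts in GFP-negative and 27, 1 and 0 in GFP-positive libraries (-0.82 ± 1.60, adjusted p = 0.892, edgeR). The counts of col4a1 and col4a2 per type I count were 0.0406, 0.0585 and 0.0523 in GFP-negative and 0.0164, 0.0184 and 0.0176 in GFP-positive libraries, again without overlap.

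Multiplexin collagens, found beside basement membranes and carrying endostatin in type XVIII, differed little. col18a1a stood at 19.7, 14.5 and 20.7 CPM in GFP-negative and 35.2, 13.1 and 24.8 CPM in GFP-positive libraries (0.41 ± 0.41, edgeR adjusted p = 0.730). The GFP-positive values spread on both sides of the GFP-negative ones. col18a1b stood at 3.18, 6.87 and 6.87 CPM and at 8.14, 7.79 and 12.0 CPM, without overlap and without passing (0.72 ± 0.55, edgeR adjusted p = 0.615). col15a1b had 12 counts in all GFP-negative and 9 in all GFP-positive libraries and did not pass the filter.

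Replicates of the GFP-positive group lay far apart in several FACIT collagens. col12a1b, whose product joins fibrils to other matrix in dense connective tissue, stood at 1.52, 5.16 and 5.54 CPM in GFP-negative and 5.89, 2.45 and 2.86 CPM in GFP-positive libraries (-0.13 ± 0.85, edgeR adjusted p = 0.975); its sign changed with the libraries used. col9a3 stood at 0.464, 1.65 and 1.61 CPM in GFP-negative and 13.3, 3.61 and 0.521 CPM in GFP-positive libraries, so that a single replicate held most of it (2.21 ± 1.25, adjusted p = 0.435). col16a1 stood at 0.596, 1.45 and 1.15 CPM and at 2.17, 0.837 and 6.64 CPM, with GFP-positive replicate 3 highest (1.58 ± 1.09, adjusted p = 0.560, edgeR). The row col19a1_2 had 92 of its 120 GFP-positive counts in replicate 2 (2.45 ± 1.29, adjusted p = 0.390, edgeR). col14a1a, singled out after its values were seen, had a GFP-negative sum of 4 counts against 1, 1 and 87 in the GFP-positive libraries. Its copy col14a1b had 48 of 49 GFP-positive counts in the same replicate 3. Neither type XIV gene was tested.

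Of the 30 members that were not tested, 6 reached 10 counts in some library: col6a3_2, col14a1a, col14a1b, col12a1a, col15a1b and col7a1l. col12a1a had 2, 19 and 10 counts in GFP-negative and 0, 4 and 4 in GFP-positive libraries, and its groups overlapped in CPM. Its sums of 31 and 8 gave a GFP-negative to GFP-positive ratio of 2.99 (exact 95% counting interval 1.35 to 7.53). That interval covers counting error of the sums and not the spread between libraries, so it does not show a group difference. The anchoring fibril row col7a1l had 5 and 18 counts, 16 of them in GFP-positive replicate 2. A total of 21 members had under 10 counts over all 6 libraries. At this depth a difference in these genes was not detectable.

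The summed levels of markers of most other cell types were higher in the same GFP-positive libraries as the collagens. In sorted pools, fewer cells of a type and less RNA per cell cannot be told apart. Counts of markers that rose or fell stand beside 2.08% and 2.13% of all tested genes. Of 18 fibroblast markers that are not collagens, 17 were tested, 7 rose and 0 fell, with a median log2 fold change of 1.90; 8 of the 18 also stand in another list used here. Their summed level was 159 to 320 CPM in GFP-negative and 661 to 1123 CPM in GFP-positive libraries, and none was at 0 in a whole group. Of 16 epicardial markers 8 of 14 tested rose (summed level 556 to 668 against 1940 to 2827 CPM, led by the keratin gene krt94). Of 21 endocardial and endothelial markers 6 of 19 tested rose (237 to 458 against 836 to 1418 CPM; flt4 had no GFP-positive count). Of 20 valve and cushion markers 2 of 13 tested rose (28.0 to 53.2 against 110 to 215 CPM; fibina had no GFP-negative and matn1 no GFP-positive count). Of 17 cartilage and bone markers 1 of 4 tested rose, comp (9.87 to 11.6 against 52.0 to 59.6 CPM; matn1, ihhb, runx2a and spp1 had no GFP-positive count, and ihha, runx2a and entpd5a no GFP-negative one). Of 15 smooth muscle and pericyte markers 2 of 9 tested rose and 0 fell (280 to 420 against 657 to 1113 CPM, led by acta2, and cnn1a had no count). These 9 were mixed, with 6 positive and 3 negative log2 fold changes. In 2 of them every GFP-positive library lay above every GFP-negative one and in 3 below, as in 12.1% and 17.6% of all tested genes. Macrophage markers, 0 of 16 called, stood at 438 to 1690 and 457 to 2015 CPM and were highest in replicate 2 of both groups. Erythrocyte markers, with 4 of 8 tested rising, stood at 564 to 688 and 1727 to 2686 CPM. Thrombocyte markers (1 of 5) stood at 25.8 to 56.5 and 92.1 to 197 CPM, with mpl at 0 in GFP-positive libraries. The most abundant of them was fn1b, which is also in the fibroblast list. Of 14 neural markers 1 of 3 tested rose (6.69 to 10.2 and 107 to 213 CPM, led by snap25a, with th at 0 in GFP-negative libraries). The median log2 fold change was 1.97 for epicardial, 1.81 for endocardial, 1.84 for valve, 1.84 for cartilage, 0.48 for smooth muscle, 0.08 for macrophage, 1.63 for erythrocyte, 1.5 for thrombocyte, 3.24 for neural and -0.60 for cardiomyocyte markers, beside 0.01 for all tested genes. The part of these cells in the collagen differences was not tested.

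The ratio of type I collagen to the fibroblast markers did not separate the groups, which does not show that it was the same in both. There were 0.521, 0.656 and 0.712 type I counts per count of the 18 markers in GFP-negative and 0.650, 0.525 and 0.860 in GFP-positive libraries, which overlap (means 0.630 ± 0.0980 and 0.678 ± 0.170, SD, n = 3). Counts of dcn, the decorin gene of fibroblasts, per col1a1b count were 0.673, 0.650 and 0.578 in GFP-negative and 0.449, 0.700 and 0.624 in GFP-positive libraries. For col10a1b the same measure did separate the groups, with 0.0449, 0.0465 and 0.141 counts per marker count in GFP-negative and 0.229, 0.419 and 0.536 in GFP-positive libraries. Per count of the epicardial markers, col10a1b stood at 0.0126, 0.0223 and 0.0550 and at 0.0674, 0.166 and 0.207, also without overlap. Per count of the cartilage marker comp the groups did overlap, with 1.44, 2.68 and 4.22 in GFP-negative and 3.78, 18.8 and 12.2 in GFP-positive libraries. Altogether 25 such ratios were computed, those with markers after the values had been seen, and none was tested.

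**Figure D4:**
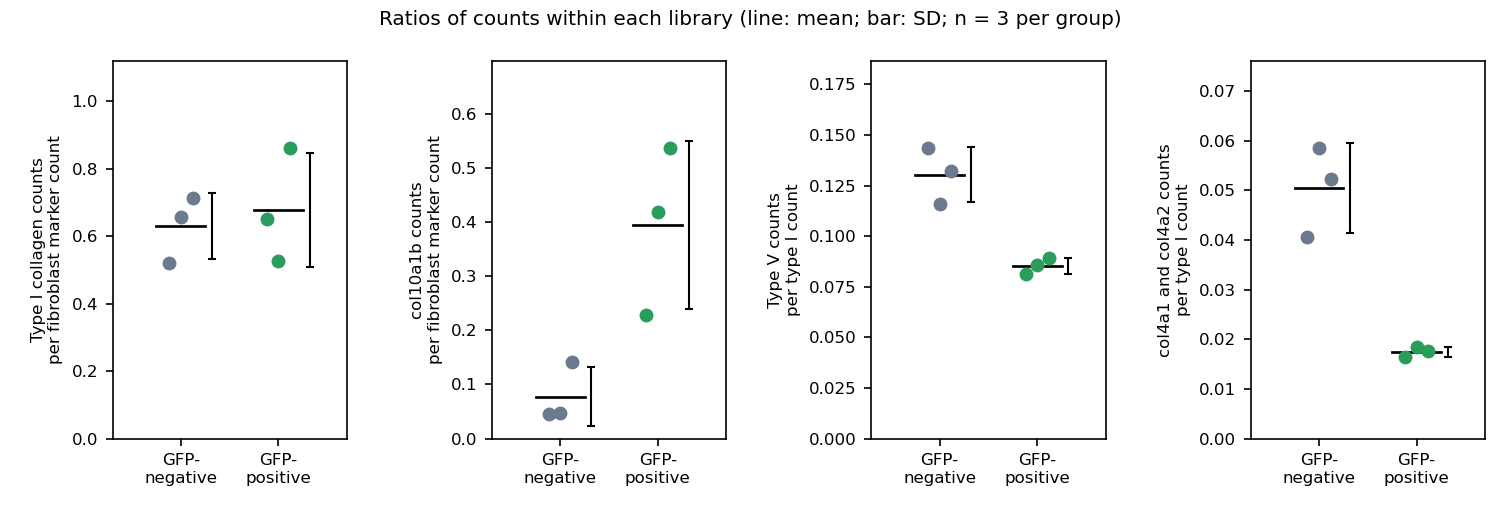
Ratios of counts within each library, with 1 point per library, lines for group means and bars for SD (n = 3). Type I collagen per fibroblast marker count overlaps between GFP-negative (0.521 to 0.712) and GFP-positive (0.525 to 0.860) libraries, col10a1b per marker count is higher in all GFP-positive libraries, and type V and col4a1 with col4a2 per type I count are lower in them.

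Genes that act on collagens were read from 6 lists. Enzymes and chaperones of collagen synthesis, such as prolyl hydroxylases, had 0 of 24 tested members past the edgeR test in either direction. At an unadjusted p under 0.05 stood 6 of the 24, beside 2549 of all 13490 tested genes. The median log2 fold change of the 24 was 0.76. DESeq2 called 3 of them higher, where 7.09% of all genes rose. serpinh1b, the collagen chaperone Hsp47, came nearest at 0.397, 1.40 and 1.06 CPM in GFP-negative and 12.2, 4.25 and 11.6 CPM in GFP-positive libraries (3.27 ± 0.84, adjusted p = 0.0736, edgeR). p3h1, which hydroxylates prolines of fibrillar chains, stood at 0.331, 0.852 and 1.01 CPM and at 11.4, 7.60 and 3.71 CPM (3.35 ± 0.90, adjusted p = 0.0805, edgeR). Both genes were without overlap. Of the 24, 17 had positive and 7 negative log2 fold changes. In 5 every GFP-positive library lay above every GFP-negative one and in 2 below, beside 12.1% and 17.6% of all tested genes.

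Genes of collagen maturation and cross-linking included 4 that rose among 16 tested and 0 that fell, with a median of 2.1 (over all tested genes 2.08% rose, 2.13% fell and the median was 0.01). pcolcea, an enhancer of the protease that trims procollagen, stood at 40.3, 41.6 and 44.6 CPM in GFP-negative and 148, 104 and 173 CPM in GFP-positive libraries, and rose by 1.75 ± 0.23 on the log2 scale (adjusted p = 0.0124, edgeR). sparc, a collagen-binding glycoprotein gene, stood at 26.1, 37.8 and 29.3 CPM and at 117, 190 and 110 CPM, and rose by 2.16 ± 0.28 (adjusted p = 0.0125, edgeR). dcn and tgm2b, a transglutaminase gene, rose by 2.04 ± 0.37 and 1.51 ± 0.27 (adjusted p = 0.0318 and 0.0305, edgeR). sparc and dcn are also in the fibroblast list. No member of this list rose with GFP-negative replicate 1 or 3 left out, where 0.259% and 0.212% of all genes did. When GFP-negative replicate 2, GFP-positive replicate 1 or GFP-positive replicate 2 was left out, 2 rose, where 0.538%, 1.1% and 0.645% of all genes did.

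Among 10 tested matrix proteases and inhibitors 2 rose and 0 fell (median 0.94), beside 2.08% and 2.13% of all tested genes. These 10 had 8 positive and 2 negative log2 fold changes. Every GFP-positive library lay above every GFP-negative one in 3 and below in 2, beside 12.1% and 17.6% of all tested genes. mmp2, a gelatinase that is also a fibroblast marker here, rose from 29.8 ± 9.22 to 118 ± 37.9 CPM (1.99 ± 0.33, adjusted p = 0.0260, edgeR). timp2a, a metalloproteinase inhibitor, rose from 58.0 ± 18 to 186 ± 22.1 CPM (1.68 ± 0.27, adjusted p = 0.0223, edgeR). None rose when the library left out was replicate 1 or 3 of the GFP-negative or replicate 2 of the GFP-positive group, and 1 rose without GFP-negative replicate 2 and also without GFP-positive replicate 1. The shares of all genes that rose in these fits are those given for the maturation list.

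Receptors and uptake genes had 0 of 5 tested members past the test (1 at an unadjusted p under 0.05, and 1 higher with DESeq2). Their median log2 fold change was -0.02, with 2 positive and 3 negative values. Of all 13490 tested genes, 2549 had an unadjusted p under 0.05 in edgeR, and DESeq2 called 7.09% of all genes higher. itgb1a is 1 copy of the gene for the shared beta chain of collagen-binding integrins. It stood at 10.3, 17.8 and 10.4 CPM in GFP-negative and 45.5, 25.1 and 32.9 CPM in GFP-positive libraries (1.42 ± 0.37, adjusted p = 0.0745, edgeR). Its copy itgb1b overlapped between groups, at 18.1, 20.7 and 19.7 and at 30.2, 9.60 and 17.9 CPM (-0.02 ± 0.43, adjusted p = 0.992, edgeR). ctsk, a collagen-degrading cathepsin gene, stood at 6.96, 28.0 and 11.9 and at 22.6, 45.5 and 38.1 CPM (1.18 ± 0.54, adjusted p = 0.303, edgeR). Laminins, nidogens and other basement membrane partners had 0 of 11 tested members past the edgeR test, with a median of 1.24. At an unadjusted p under 0.05 stood 2 of them, and DESeq2 called 1 higher, beside the same values over all genes. lamb1b and lama5, laminin chain genes, came nearest with 1.77 ± 0.63 and 1.29 ± 0.47 (edgeR adjusted p = 0.180 and 0.189). Among 14 tested genes of TGF-β signalling, known as an inducer of collagen genes in fibroblasts, 2 rose and 0 fell (median 1.41), beside the same 2.08% and 2.13%. These 14 were mixed, with 8 positive and 6 negative log2 fold changes. In 5 every GFP-positive library lay above every GFP-negative one and in 2 below, beside 12.1% and 17.6% of all tested genes. The TGF-β responsive gene ccn2a rose from 36.3 ± 1.59 to 138 ± 19.1 CPM (1.92 ± 0.19, adjusted p = 0.00526, edgeR). Just 1 gene of this list rose when any GFP-negative replicate or GFP-positive replicate 2 was left out, beside the shares of all genes given for the maturation list.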

How the data were processed

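Each library has 1 deposited table of raw total counts, one whole number for every gene, as the file headers and values show. SMART-Seq v4 cDNA and an NEBNext Ultra II Directional kit were used after digestion with collagenase (3 mg/ml, 30 min), per the labels' protocols. The sources used here do not give the aligner, the counting rules, the genome build or the annotation, and coordinates are left out for that reason. Gene lengths and sequences were not used here. Replicates of 1 group differed by more than sampling noise (chi-square per degree of freedom 29.0 to 93.6).

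All genes were fitted with edgeR 4.0.16 in R 4.3.3: filterByExpr, TMM, group as the only term, robust quasi-likelihood F test, Benjamini-Hochberg adjustment over 13490 genes, threshold 0.05. A standard error is the log2 fold change over the square root of F. limma 3.58.1 and DESeq2 1.42.0 were alternatives. The fit was tested on simulated data. Classes follow the collagen type number. Of 335 entries in 17 lists, 314 matched a row; gene names were matched by symbol. Named with values were col10a1b and col1a1b, called members, the 3 members of highest mean CPM in each class with a tested member, their partner chains and, of each of 6 partner lists, up to 4 called members or the 2 with the smallest adjusted p. Members and lists were chosen with earlier results of these data known. The values of 1 gene of the partner lists are not reported here.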

Additional observations from a re-analysis of the deposited data

How the results depend on the processing

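With 3 libraries a group, 22 of 24 tested collagens did not pass, which does not show that they were the same in both groups. The count of 2 collagens called higher was 5 with DESeq2 (col1a1a, col1a2 and col5a2a in addition) and 4 with the replicate block (col1a1a and col1a2 in addition). It was 0 to 2 over the fits that left out 1 library each, and 0 without GFP-negative replicate 1 and GFP-positive replicate 3 together, an alternative chosen after seeing the data in which no gene at all was called. Same-numbered replicates deviated together weakly (r = 0.13, 0.19 and 0.09 for numbers 1, 2 and 3), and different numbers had r of -0.12 to -0.01. Each library thus correlated best with its own number. The labels give no pairing, so the main fit left the numbers out, and whether they are pairs was not tested. The choice mattered, and in both directions. With the block, the SE of col10a1b was 0.29 against 0.65, while that of col9a3 was 1.85 against 1.25. The edgeR adjusted p was then 0.00626 for col1a2 and 0.0171 for col1a1a.

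The collagen share was 0.168% in GFP-positive and 0.0319% in GFP-negative libraries, against 0.101% and 0.0274%, with mitochondrially encoded counts left out of the denominator. With at least 1 count as the limit, 36 and 39.3 collagens were expressed in GFP-negative and GFP-positive libraries on average. With at least 1 CPM these means were 20 and 21.3, against 23 and 22.3 at 10 counts.

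Over all genes the median log2 fold change became -0.11 with upper-quartile factors, -0.16 without a composition factor, -0.30 with limma-voom and -0.29 with the replicate block, and that of the tested collagens to 1.2, 1.15, 0.85 and 1.25. Of 255 alternative values for 16 named collagens, 219 kept direction and side of the threshold and 21 changed sign, none of them past the test. These were col4a1 (0.0322 with RLE factors, 0.0314 with DESeq2, 0.00281 with limma-voom, 0.0681 with the block, -0.37 to 0.38 without single libraries), col4a2 (-0.05 to 1.95 without single libraries, -0.43 without both named ones), col4a4 (-0.13 with upper-quartile and -0.17 without composition factors, -0.0419 without a filter, -0.0944 with limma-voom, -0.17 without both libraries, -0.08 to 0.16 without single ones) and col12a1b (-0.55 to 0.14 without single libraries). The cause was not tested. Among the partner lists, DESeq2 called 9 of 16 maturation genes, 4 of 14 TGF-β genes and 1 of 11 basement membrane partners higher, against 4, 2 and 0. It called 1 of 10 proteases lower, and of all genes it called 7.09% higher and 5.51% lower. With limma-voom 2 synthesis genes were higher and 1 protease lower, where 2.63% and 1.81% of all genes were. In the fit without a composition factor 1 TGF-β gene was called higher, where 1.45% of all genes were. Without GFP-positive replicate 3, 3 synthesis genes and 1 basement membrane partner were higher, and 1 synthesis gene and 1 protease lower. Of all genes 3.09% rose and 4.01% fell in that fit. No per-codon comparison of chains was run.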

Other observations

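Proteins other than collagens also carry collagen-like domains, and a list of 38 such genes was written after the collagen values had been seen, of which 33 matched a row and 17 were tested. colec12, a scavenger receptor of endothelium with a collagen-like stalk, stood at 6.56, 11.6 and 10.7 CPM in GFP-negative and 26.5, 51.9 and 52.8 CPM in GFP-positive libraries. It rose by 2.18 ± 0.39 on the log2 scale (adjusted p = 0.0294, edgeR) and was the 1 gene of this list that passed, beside 2.08% of all tested genes. The elastic fibre gene emilin1a lay the other way, at 34.6, 28.0 and 37.3 CPM in GFP-negative and 11.4, 20.2 and 7.48 CPM in GFP-positive libraries, without overlap and without passing (-1.36 ± 0.40, adjusted p = 0.114, edgeR). The median of the list was 0.57. Within the complement genes c1qa, c1qb and c1qc, which macrophages make, replicate 2 was the highest library of both groups.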
